A study of Homo sapiens with 4 samples.

Results

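The genes described are 29 that make, sense, take up, move or store cholesterol, of 22985 gene symbols in the deposited transcript counts. They were chosen by name as genes of the pathway, with earlier results of these data known, and all 29 were found. The rule lists the genes by symbol and uses no measured difference between the lines. Where a gene had several transcript entries, the entry with the highest mean share of sense tags was kept. By role they comprise 5 enzymes that lead to and through mevalonate, 3 that build isoprenoids, 3 that make squalene and lanosterol, 9 that turn lanosterol into cholesterol, 5 regulators that sense sterols, and 4 proteins of uptake, transport and storage.

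The study sequenced total RNA, after removal of ribosomal RNA, from 2 human prostate cancer cell lines with 2 libraries of each. LNCaP is an androgen-dependent line from a lymph node metastasis and is labelled as primary cancer. C4-2 was derived from LNCaP in castrated mice and is labelled as castration-resistant. All 4 libraries came from cells kept in RPMI medium whose serum had been stripped of steroids with charcoal. No library from cells given androgen or lipoprotein-rich serum entered the comparison, and each condition is 1 line, so line and androgen dependence cannot be told apart. Whether replicate libraries stem from separate cultures is not stated, and the p-values given here measure the spread between these 4 samples alone, which may be technical.

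One contradiction comes before the results. Each sample's data are stored under the other line's name, while the title, the source and the cell line label all go together. Groups follow the labels, and LNCaP and C4-2 below stand for the libraries so labelled. Every direction below would turn round if the stored names were right.

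Cells make cholesterol from acetyl-CoA through mevalonate, isoprenoid diphosphates, squalene and lanosterol, and they also take it up from lipoproteins. The transcription factors SREBP-1 and SREBP-2, encoded by SREBF1 and SREBF2, are held in the endoplasmic reticulum membrane together with the escort protein SCAP. When membrane cholesterol is low, SCAP carries them to the Golgi, where proteases release the active part. INSIG proteins hold the complex back when sterols are plentiful. In prostate cells, cholesterol is also the starting material for androgens made within the cell.

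The depth of the libraries differed, as did the estimated share of tags in exons. The exons of named genes held 58925680 and 70459588 sense tags in LNCaP replicates 1 and 2, and 163126630 and 119080520 in C4-2 replicates 1 and 2 (replicates are given in this order throughout). The library total by which the RPKM values were divided was not given in the sources used here. It was estimated from the deposited counts, RPKM values and transcript spans, taking the highest values as those of single-exon transcripts. The exon tags came to 31.0% and 35.7% in LNCaP, and to 67.7% and 69.4% in C4-2, of that estimate. What else the total counts, such as tags outside exons, was not checked. The lines were therefore compared on tags per 1e6 exon tags, scaled by TMM (the trimmed mean of M values) and called CPM below. The part of the exon share in the results was not tested beyond the scaling given here. The 9 markers of luminal prostate cells were all measured, with summed levels of 2861 and 2882 CPM in LNCaP and 3058 and 3010 CPM in C4-2. Of these markers 6 were higher and 3 lower in C4-2. Similar sums hid large falls, named after their values were seen, of the androgen-induced KLK3 (533 and 557 CPM in LNCaP, 6.14 and 6.23 CPM in C4-2, 88.2-fold lower) and KLK2 (248 and 265 CPM in LNCaP, 18.4 and 18.9 CPM in C4-2, 13.7-fold lower). The 2 immune, 2 endothelial and 4 fibroblast or smooth muscle genes that passed the filter on low counts summed to at most 3.49, 4.56 and 11.9 CPM in any library, and CD3E, MS4A1 and COL1A2 had 0 tags in all 4. None of the 4 basal markers passed that filter.

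Most of the cholesterol genes were higher in the libraries labelled C4-2. Of the 29, 24 passed the test as higher, 5 passed it as lower (LBR, HSD17B7, SC5D, INSIG1 and STARD4), and no member missed it. The test was edgeR's quasi-likelihood test on tag counts with Benjamini-Hochberg adjustment over 15975 genes, at an adjusted p under 0.05. It called 80.0% of all tested genes, 40.2% higher and 39.7% lower, so a call by itself is common here and the size of a change says more. The median log2 fold change, C4-2 over LNCaP, was 0.64 over the members and -0.011 over all tested genes, whose middle 50% lay between -0.72 and 0.57. Of the members 16 lay in the top 25% of all tested genes and 2 in the bottom 25%. Every member had at least 703 sense tags in each library, while the tested genes included far rarer ones. No comparison with genes of like abundance was made. A called rise of at least 2-fold was found for 10 members, beside 11.7% of all tested genes, and a called fall of that size for LBR alone, beside 18.1%. In bulk RNA, fewer cells that express a gene and less RNA per cell cannot be told apart.

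Summed over the 29 genes, the level was 2878 and 2894 CPM in LNCaP and 4287 and 4206 CPM in C4-2. The members took 0.293% and 0.291% of all named exon tags in LNCaP and 0.422% and 0.417% in C4-2. For all 29 genes both libraries of one line lay on the same side of both libraries of the other, which also held for 89.9% of tested genes (44.6% higher and 45.4% lower in C4-2). The number of sense tags behind a value ran from 703 to 79231 per gene and library.

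**Figure D1:**
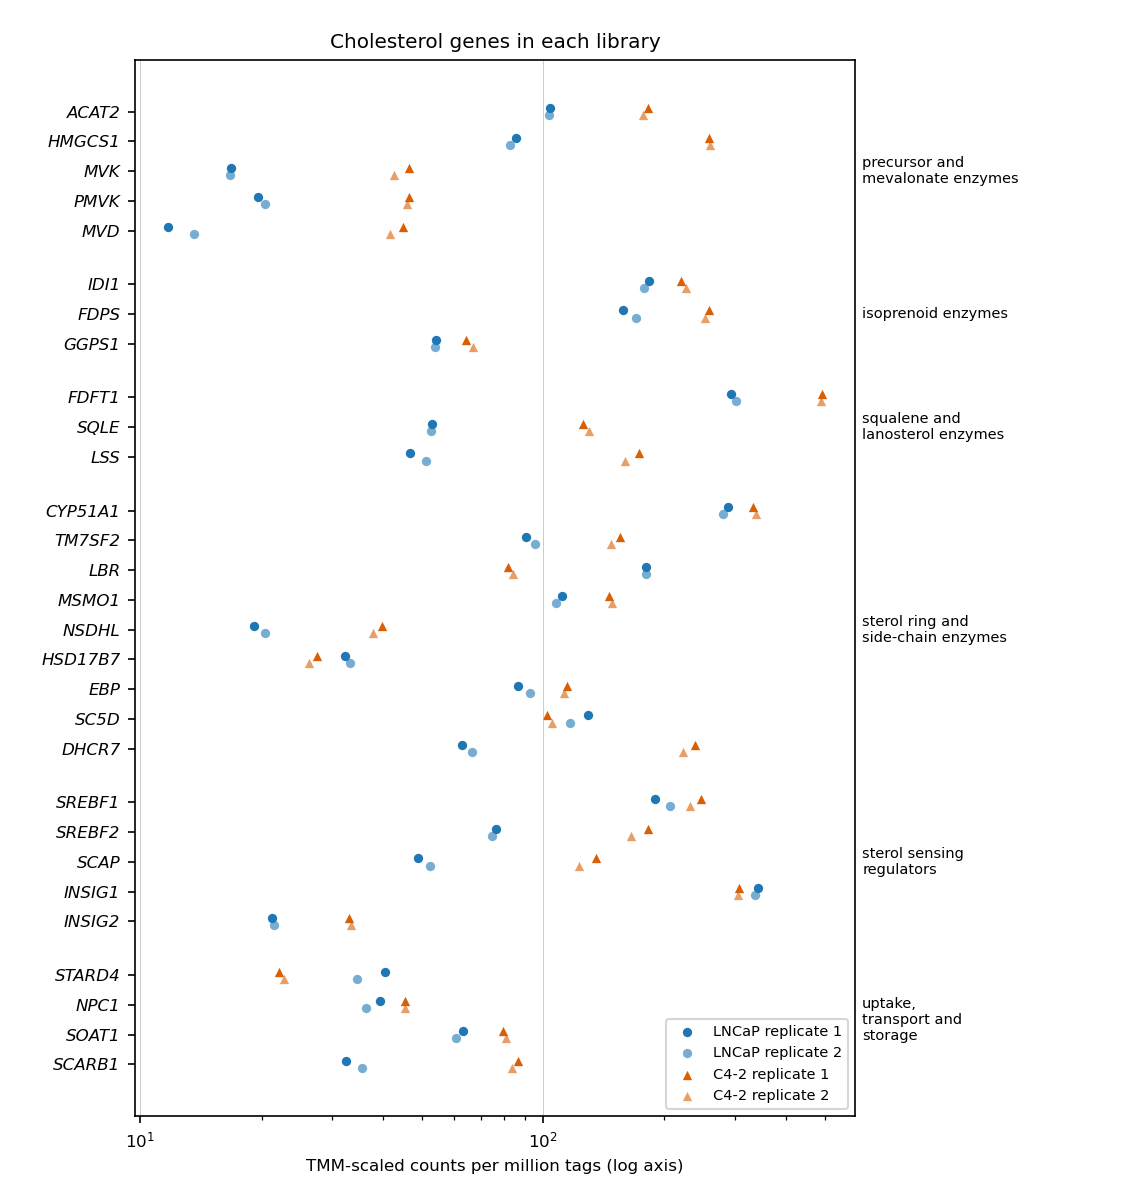
TMM-scaled level in CPM, on a log axis, of each of the 29 genes in each of the 4 libraries, with 1 point per library, grouped by role. For all 29 genes the pair of points of one line does not overlap that of the other, and LBR shows the widest gap among the genes that were lower in C4-2.

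The scaling bears on the directions. With the estimated library totals behind the RPKM values in place of TMM, the median of all genes moved up by 1.004 (log2). On those totals 28 of the members were called higher and none lower, and the member median was 1.64. On that scale LBR was at -0.11 with an adjusted p of 0.40, and 83.4% of all tested genes were called, 72.4% higher and 11.0% lower. Such a change of scaling moves all genes by nearly the same amount. The place of the members' median relative to all genes could therefore hardly change, and that it stayed is no further evidence. Other settings moved the folds down: the median shift was -0.17 with upper-quartile scaling and -0.15 with a stricter filter (mean CPM of at least 5). Folds below are on the TMM scale, and the genes given as lower were lower relative to the bulk of genes.

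Promoter windows of the members were searched because most members rose together and the pathway is known to be driven by SREBP, which binds sterol regulatory elements beside NF-Y and Sp1. Windows were the 300 bases before the deposited transcript start, read from the GRCh37 genome, which is the build of the deposited data. The motifs, on both strands, were the sterol regulatory element TCACNCCAC, the NF-Y box CCAAT, the Sp1 box GGGCGG and the palindromic E-box CACGTG. No match of one motif overlapped a match of another in the members' windows.

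The NF-Y box was found in 20 of 29 members (69.0%), beside 36.4% of all 22734 windows of the same length and 36.7% of those of tested genes. The Sp1 box was in 26 members (89.7%), beside 50.6% and 61.6%. The sterol regulatory element in this strict spelling was in HMGCS1 and SREBF2 (6.90% of members), beside 1.28% and 1.21%. The E-box was in SC5D, DHCR7 and SCAP (10.3%), beside 7.47% and 8.60%. The NF-Y box was in 16 of 24 members that were higher and in 4 of 5 that were lower. These matches describe letters in a window and say nothing of binding.

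The 165 bases before the start are shown for the 3 genes with the largest rises (DHCR7, MVD and LSS), the 2 with a sterol regulatory element (HMGCS1 and SREBF2) and LBR, which fell most. Each is written 5′ to 3′ on the gene's strand and ends at the base before the start. Capitals mark sterol regulatory elements and NF-Y boxes, the latter as CCAAT or, on the other strand, ATTGG. The windows are chr11:71159478-71159642 (minus strand), chr16:88729496-88729660 (minus), chr21:47648739-47648903 (minus), chr5:43313615-43313779 (minus), chr22:42228941-42229105 (plus) and chr1:225615816-225615980 (minus).
DHCR7: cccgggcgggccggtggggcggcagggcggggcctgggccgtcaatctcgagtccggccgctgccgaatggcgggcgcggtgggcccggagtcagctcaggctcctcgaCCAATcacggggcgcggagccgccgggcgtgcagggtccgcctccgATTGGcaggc
MVD: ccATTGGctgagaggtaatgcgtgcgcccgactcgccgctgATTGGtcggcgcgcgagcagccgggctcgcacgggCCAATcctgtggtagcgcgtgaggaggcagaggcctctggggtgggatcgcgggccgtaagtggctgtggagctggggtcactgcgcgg
LSS: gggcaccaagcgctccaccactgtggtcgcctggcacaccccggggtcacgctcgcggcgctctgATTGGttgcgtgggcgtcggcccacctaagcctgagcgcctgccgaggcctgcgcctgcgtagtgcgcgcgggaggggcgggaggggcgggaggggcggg
HMGCS1: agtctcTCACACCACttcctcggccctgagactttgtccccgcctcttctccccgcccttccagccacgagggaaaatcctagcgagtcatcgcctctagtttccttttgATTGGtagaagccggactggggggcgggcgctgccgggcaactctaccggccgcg
SREBF2: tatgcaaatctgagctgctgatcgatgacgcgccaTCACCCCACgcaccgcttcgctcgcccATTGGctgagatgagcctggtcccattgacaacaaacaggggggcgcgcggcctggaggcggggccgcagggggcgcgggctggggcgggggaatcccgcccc
LBR: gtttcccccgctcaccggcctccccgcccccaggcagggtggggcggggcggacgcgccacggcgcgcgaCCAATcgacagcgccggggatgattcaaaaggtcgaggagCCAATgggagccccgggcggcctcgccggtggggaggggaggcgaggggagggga
In HMGCS1 the element TCACACCAC lay 159 to 151 bases before the start, and in SREBF2 the element TCACCCCAC lay 130 to 122 bases before it. MVD held 3 NF-Y boxes in the stretch shown, DHCR7 and LBR 2 each, and the others 1. LBR, the gene with the largest fall, thus had as many NF-Y boxes as DHCR7, the gene with the largest rise.

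The 5 enzymes that lead to and through mevalonate were all higher in C4-2, with a median log2 fold change of 1.41. HMGCS1, which makes HMG-CoA from acetoacetyl-CoA and carries the element shown above, lies at chr5:43287572-43313614 on the minus strand (hg19, as are all coordinates here). It stood at 85.8 and 82.5 CPM in LNCaP and at 259 and 260.2 CPM in C4-2. Its log2 fold change was 1.62 ± 0.045 (SE, adjusted p = 3.63e-08), and the replicates differed by far less than the lines did.

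MVD, which decarboxylates mevalonate diphosphate to isopentenyl diphosphate, is at chr16:88718348-88729495 (minus strand). It had 11.7 and 13.6 CPM in LNCaP and 44.8 and 41.7 CPM in C4-2, a log2 fold change of 1.77 ± 0.080 (adjusted p = 3.41e-07). This was the lowest member per length of transcript in LNCaP, and its rise was among the largest of the 29. MVK, the kinase that puts the first phosphate on mevalonate, had 16.8 and 16.7 CPM in LNCaP and 46.4 and 42.6 CPM in C4-2, a 2.66-fold rise. PMVK, which adds the next phosphate, went from 19.7 and 20.4 CPM to 46.4 and 45.9 CPM, a 2.30-fold rise. ACAT2, the cytosolic thiolase that opens the pathway with acetoacetyl-CoA, rose less. Its levels were 104 and 104 CPM in LNCaP and 182 and 177 CPM in C4-2, 1.73-fold.

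The 3 isoprenoid enzymes were higher by smaller amounts, with a median log2 fold change of 0.30. FDPS makes farnesyl diphosphate, the branch point to sterols, dolichol, ubiquinone and protein prenylation. It rose from 158 and 169.7 CPM to 258 and 253 CPM (log2 fold change 0.64 ± 0.049, adjusted p = 5.96e-06). IDI1, the isomerase that supplies the starter unit for chain growth, had 184 and 178 CPM in LNCaP and 220.0 and 226 CPM in C4-2, 1.24-fold. GGPS1, which makes geranylgeranyl diphosphate for prenylation, was at 54.4 and 53.9 CPM in LNCaP and 64.2 and 66.9 CPM in C4-2. Its log2 fold change of 0.28 fell to 0.11 and lost its call with upper-quartile scaling (adjusted p = 0.064). IDI1 has 3 and FDPS 10 annotated pseudogene copies, so tags of these genes could be split between copies, and their values are uncertain to that extent.

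The enzymes of squalene and lanosterol were all 3 higher, with a median of 1.27. FDFT1, squalene synthase, commits farnesyl diphosphate to sterols and was the most abundant member per length in both lines. Its levels were 292 and 301 CPM in LNCaP and 493 and 490.0 CPM in C4-2, a log2 fold change of 0.73 ± 0.039 (adjusted p = 7.48e-07). SQLE, the epoxidase that is a rate-controlling step of the later pathway, rose from 53.1 and 52.8 CPM to 126 and 129.8 CPM, 2.42-fold. LSS closes the ring system to lanosterol and is at chr21:47609038-47648738 (minus strand). It had 46.6 and 51.1 CPM in LNCaP and 173 and 160.0 CPM in C4-2, a log2 fold change of 1.77 ± 0.059 (adjusted p = 8.65e-08), close to that of MVD.

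Between lanosterol and cholesterol the 9 enzymes were split. DHCR7, CYP51A1, TM7SF2, MSMO1, NSDHL and EBP were higher in C4-2 and LBR, HSD17B7 and SC5D lower, and the median was 0.34. DHCR7, the reductase that acts last on the ring to give cholesterol, is at chr11:71145457-71159477 (minus strand) and showed the largest rise of the 29 on this scale. It had 63.0 and 66.5 CPM in LNCaP and 239 and 222 CPM in C4-2. Its log2 fold change was 1.83 ± 0.054 (adjusted p = 5.24e-08), a 3.56-fold rise.

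TM7SF2 and LBR both carry sterol reductase activity toward the same ring double bond, and they moved in opposite directions. LBR, which also anchors heterochromatin at the inner nuclear membrane, is at chr1:225589204-225615815 (minus strand). It was at 179.8 and 179.8 CPM in LNCaP and 81.7 and 84.4 CPM in C4-2, a log2 fold change of -1.11 ± 0.042 (adjusted p = 1.40e-07). TM7SF2 had 90.7 and 95.6 CPM in LNCaP and 156 and 147 CPM in C4-2, a log2 fold change of 0.70 ± 0.048 (adjusted p = 3.09e-06). The ratio of the deposited RPKM values, TM7SF2 over LBR, needs no scaling between libraries. It was 1.22 and 1.28 in LNCaP and 4.59 and 4.20 in C4-2, 3.52-fold higher on average. GC content was 62.4% for TM7SF2 and 37.8% for LBR. The difference of their log2 fold changes was 1.81, and 1.33 with a correction for GC content and length, described below.

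Of the other ring enzymes, NSDHL changed most. NSDHL and HSD17B7 act in turn in removing the methyl groups at one ring carbon, after the oxidase MSMO1. NSDHL had 19.2 and 20.4 CPM in LNCaP and 39.9 and 37.8 CPM in C4-2, 1.96-fold higher. HSD17B7 had 32.2 and 33.1 CPM in LNCaP and 27.4 and 26.3 CPM in C4-2, 1.22-fold lower. The rise of MSMO1 was from 111 and 107 CPM to 146 and 149 CPM, 1.35-fold. These neighbours in the pathway thus did not share a direction on the TMM scale, while with library totals HSD17B7 was at 0.72.

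CYP51A1, the demethylase that first acts on lanosterol, had 287 and 279.7 CPM in LNCaP and 332 and 338 CPM in C4-2. Its log2 fold change of 0.24 missed the threshold with upper-quartile scaling (0.074, adjusted p = 0.14) and with a stricter filter on low levels (0.095, adjusted p = 0.075). EBP, an isomerase that shifts a ring double bond, went from 86.8 and 93.0 CPM to 115 and 113 CPM, 1.27-fold. SC5D, the desaturase that feeds DHCR7, had 129 and 117 CPM in LNCaP and 102 and 105 CPM in C4-2, a log2 fold change of -0.24, which with library totals became 0.77. CYP51A1 has 3 and HSD17B7 2 annotated pseudogene copies, with the same uncertainty as for IDI1 and FDPS.

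**Figure D2:**
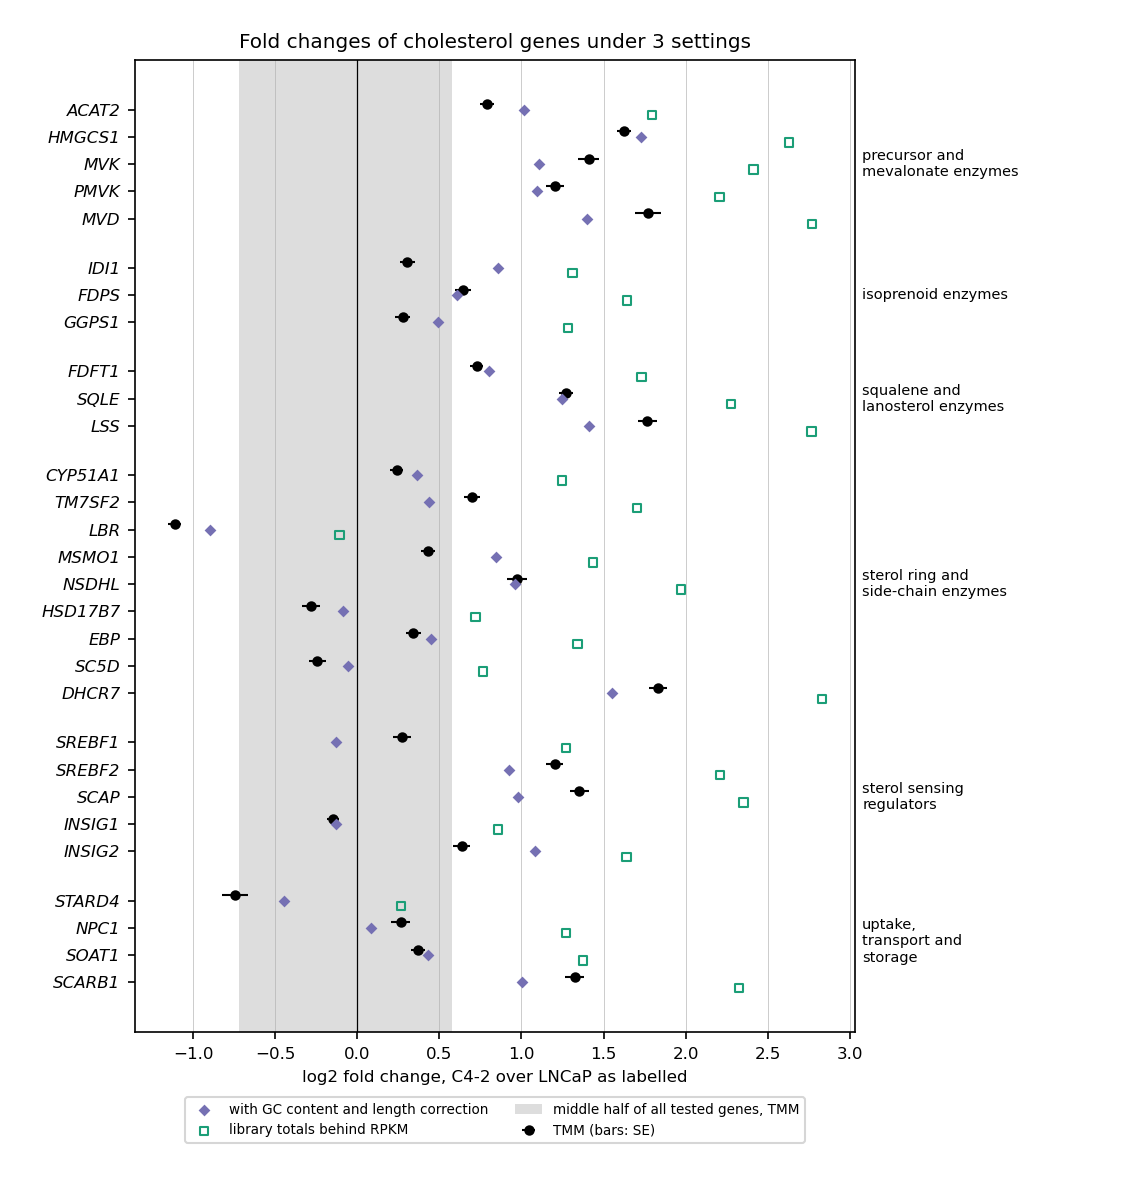
Log2 fold change of each member, C4-2 over LNCaP as labelled, under 3 settings (TMM, library totals, and TMM with a correction for GC content and length), with genes ordered by role; bars are SE of the TMM value and the grey band holds the middle 50% of all tested genes. Library totals move nearly all genes up by about the same amount, while the correction moves genes one by one and takes SREBF1 below 0.

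The sterol-sensing regulators gave 4 genes higher and 1 lower, with a median of 0.64. SREBF2, whose product acts mainly on cholesterol genes, is at chr22:42229106-42302375 (plus strand). It had 76.4 and 74.6 CPM in LNCaP and 182 and 166 CPM in C4-2, a log2 fold change of 1.20 ± 0.053 (adjusted p = 2.99e-07). SCAP, the escort and sterol sensor, is at chr3:47455184-47517445 (minus strand). SCAP rose from 48.9 and 52.2 CPM to 135 and 123 CPM, a log2 fold change of 1.35 ± 0.059 (adjusted p = 2.83e-07). Both passed a 2-fold change on this scale, but not with the GC content and length correction (SREBF2 at 0.92 and SCAP at 0.98 in log2), where INSIG2 did (1.08).

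SREBF1, whose product acts mainly on fatty acid genes, differed little between the lines. Its levels were 190.1 and 206 CPM in LNCaP and 247 and 232 CPM in C4-2, a log2 fold change of 0.27 ± 0.055 (adjusted p = 0.00207). The call was lost with upper-quartile scaling (0.11, adjusted p = 0.10) and with the stricter filter (0.13, adjusted p = 0.068), and it turned to -0.13 (adjusted p = 0.0029) with a correction for GC content and length. The RPKM ratio of SREBF2 to SREBF1 was 0.467 and 0.420 in LNCaP and 0.855 and 0.831 in C4-2, 1.90-fold higher on average. The difference of their log2 fold changes was 0.93, and 1.06 with that correction.

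INSIG1, the retention protein whose own gene is an SREBP target, was slightly lower in C4-2. It had 342 and 336 CPM in LNCaP and 306 and 304 CPM in C4-2, a log2 fold change of -0.15 ± 0.039 (adjusted p = 0.00758). This call was lost when either C4-2 library was left out (-0.14 each time, adjusted p = 0.11 without replicate 1 and 0.12 without replicate 2), and library totals gave 0.86. INSIG2, the less abundant retention protein, rose from 21.2 and 21.5 CPM to 33.0 and 33.3 CPM, 1.55-fold. The RPKM ratio of INSIG2 to INSIG1 was 0.0723 and 0.0746 in LNCaP and 0.126 and 0.127 in C4-2, 1.72-fold higher on average. The difference of their log2 fold changes was 0.79, and 1.21 with the GC content and length correction.

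**Figure D3:**
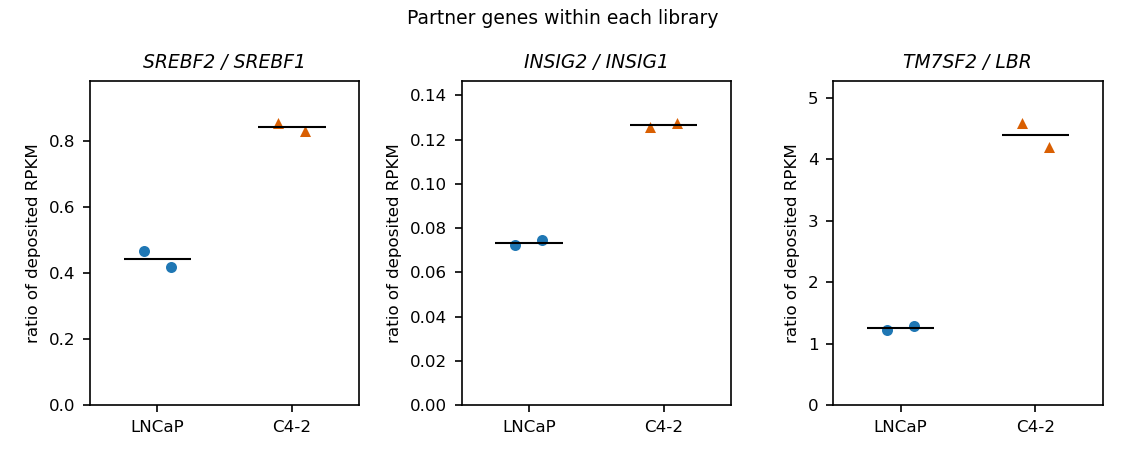
Ratio of deposited RPKM values within each library for SREBF2 over SREBF1, INSIG2 over INSIG1 and TM7SF2 over LBR, with 1 point per library and a line at the mean of each cell line. All 3 ratios are higher in both libraries labelled C4-2 than in either library labelled LNCaP.

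The SREBF genes each hold a microRNA hairpin in an intron, MIR33A in SREBF2 (chr22:42296948-42297016, plus strand) and MIR33B in SREBF1 (chr17:17717150-17717245, minus strand). Their products are known to act against the cholesterol exporter ABCA1. The mature sequences, from RefSeq, are shown because their seeds (bases 2 to 8, in capitals) are the same.
hsa-miR-33a-5p: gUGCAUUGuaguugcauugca
hsa-miR-33b-5p: gUGCAUUGcuguugcauugc
The hairpin of MIR33A had 1 sense tag in LNCaP replicate 1 and 0 in the other libraries. That of MIR33B had 6 and 3 in LNCaP and 7 and 1 in C4-2. At this depth no difference in either hairpin was detectable, and these libraries were not made to hold mature microRNAs.

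Uptake, transport and storage genes gave 3 higher and 1 lower, with a median of 0.32. SCARB1, the receptor for high-density lipoprotein that takes in cholesteryl esters, is at chr12:125262174-125348519 (minus strand). It rose from 32.4 and 35.6 CPM to 86.7 and 83.7 CPM, a log2 fold change of 1.32 ± 0.058 (adjusted p = 2.83e-07). This was the one change of at least 2-fold among these 4 genes. SOAT1, which esterifies cholesterol for storage in droplets, had 63.2 and 60.8 CPM in LNCaP and 79.5 and 80.7 CPM in C4-2, 1.29-fold higher.

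NPC1, which passes cholesterol out of lysosomes, had 39.5 and 36.4 CPM in LNCaP and 45.5 and 45.5 CPM in C4-2. Its log2 fold change of 0.26 (adjusted p = 0.00299) did not stay past the threshold with upper-quartile scaling (0.097, adjusted p = 0.15), the stricter filter (0.12, adjusted p = 0.10) or the GC and length correction (0.082, adjusted p = 0.14). STARD4, a soluble protein that carries cholesterol between membranes and is itself an SREBP target, was lower in C4-2. It had 40.6 and 34.6 CPM in LNCaP and 22.2 and 22.7 CPM in C4-2, a log2 fold change of -0.74 ± 0.078 (adjusted p = 4.06e-05), which became 0.27 with library totals. The LNCaP libraries differed more from each other than the C4-2 libraries did, and still both lay above both C4-2 libraries.

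Levels between genes were compared per length, on the deposited RPKM values within each line. In LNCaP the order began with FDFT1 at 47.6 ± 5.20 (SD, n = 2), INSIG1 at 37.9 ± 2.85 and FDPS at 37.4 ± 5.20, and ended with MVK at 2.73 ± 0.229, NPC1 at 2.65 ± 0.0799 and MVD at 2.39 ± 0.461. INSIG1 and FDPS did not differ beyond their spread, nor did the last 3, though MVD was below MVK in each LNCaP library. In C4-2 it began with FDFT1 at 158 ± 2.83, FDPS at 117 ± 0.976 and ACAT2 at 78.4 ± 0.364, and ended with SOAT1 at 7.84 ± 0.264, STARD4 at 6.71 ± 0.261 and NPC1 at 6.40 ± 0.146. IDI1 at 70.8 ± 3.00 and CYP51A1 at 70.7 ± 2.43 lay within each other's spread there. INSIG1 at 68.7 ± 1.25 was below both of them in each C4-2 library. The highest gene stood 19.9-fold above the lowest in LNCaP and 24.7-fold in C4-2.

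Places in that order need no scaling between lines. They set the members against each other, while TMM folds set each gene against the bulk of genes. A gene that rose less than other members can therefore drop in place. INSIG1 went from place 2 of 29 in LNCaP to place 6 in C4-2, LBR from 10 to 22 and HSD17B7 from 13 to 24. STARD4 went from place 18 to 28. In the other direction HMGCS1 went from place 20 to 12, LSS from 24 to 15 and MVD from 29 to 19. Not all shifts went the way of the TMM folds: GGPS1 went from place 14 to 20 and SOAT1 from 25 to 27, and MSMO1, EBP, CYP51A1 and NPC1 each also stood lower in the order in C4-2, while all 6 were called higher on the TMM scale.

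GC content of the transcripts moved with the folds. Across the 29 genes, which share the same 4 libraries, GC content ran from 34.8% to 65.5% and its correlation with the log2 fold change was r = 0.60. Over the 15415 tested genes with a GC content the correlation was 0.097. The 15 members at or above the members' median GC content of 46.9% had a median log2 fold change of 1.20, and the 14 below it had 0.34. After a correction for GC content and length fitted over the same 15415 genes, chosen after seeing the data, these medians were 0.96 and 0.65 and r was 0.32. The corrected test called 22 members higher and 4 lower and left HSD17B7, SC5D and NPC1 without a call, with a member median of 0.85. Of the 15415 genes it called 42.6% higher and 38.4% lower (81.1% in either direction). Corrected values of the largest risers were 1.73 for HMGCS1, 1.55 for DHCR7, 1.41 for LSS and 1.40 for MVD, and LBR stayed lower at -0.90.

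**Figure D4:**
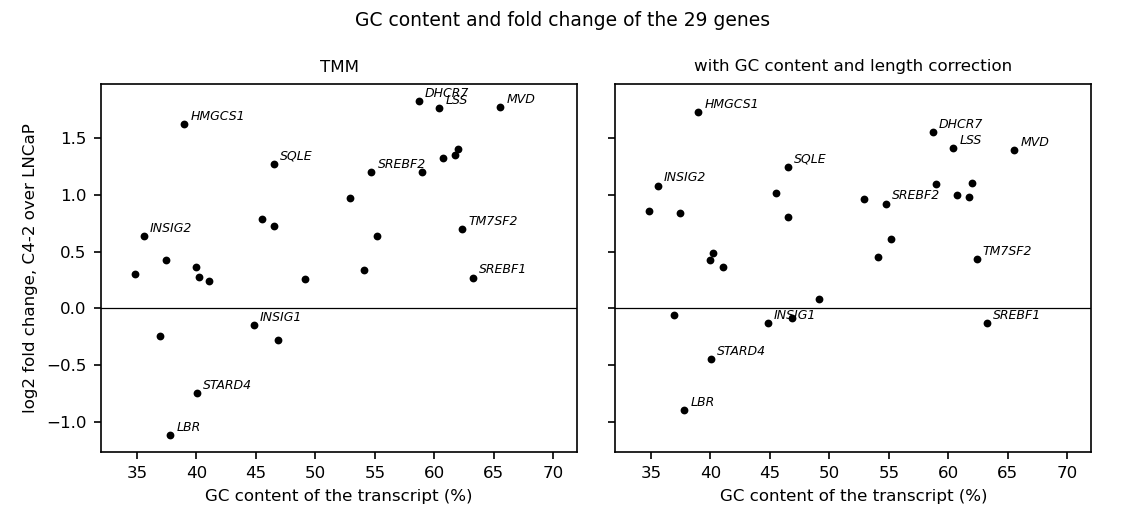
Log2 fold change, C4-2 over LNCaP as labelled, against the GC content in percent of each member's transcript, before and after correction for GC content and length, with 1 point per gene. Before correction the GC-rich genes sit higher, and the slope is smaller after it.

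Genes that neighbour the pathway were described through 7 lists, also chosen with earlier results of these data known. Of their 77 genes, 72 were tested. Of these 72, 40 were higher, 22 lower and 10 not called, with a median of 0.37. Over all tested genes the test called 40.2% higher and 39.7% lower. Those shares stand beside each list count below, and a count near them is no trait of its list. In the list of fatty acid and related genes, grouped under SREBP-1 although not every gene in it is a fatty acid gene, 10 of 10 were higher with a median of 0.79. ELOVL6, which lengthens fatty acids, rose most there, from 21.7 and 20.6 CPM to 80.7 and 81.2 CPM (1.94 in log2). SCD, the desaturase that makes oleic acid, rose from 612 and 577 CPM to 775 and 765 CPM (0.37). ELOVL5, another elongase, rose by 0.41. ME1, which supplies NADPH, was at 0.22 and lost its call with upper-quartile scaling (0.053, adjusted p = 0.32) and with the stricter filter (0.074, adjusted p = 0.13). For SREBF1 itself the value was 0.27.

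Genes that process SREBP or break down sterol sensors were split, with 7 of 16 higher, 6 lower and 3 not called. SEC23B, a coat protein of vesicles leaving the endoplasmic reticulum, was 2.19-fold higher. Its paralog SEC23A was at -0.37 in log2, which library totals turned to 0.64, and the cargo adaptor SEC24D was 2.26-fold lower, at 32.3 and 31.1 CPM in LNCaP and 13.9 and 14.1 CPM in C4-2. With library totals SEC24D was at -0.17 (adjusted p = 0.17). Parts of the same coat thus differed in direction on the TMM scale.

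Genes of oxysterol sensing and efflux gave 4 of 7 higher, 2 lower and 1 not called. The receptor NR1H2 (LXR beta) and its partner RXRA were both 1.97-fold higher. NR1H3 (LXR alpha) was at -0.47 in log2, and at 0.53 with library totals. LPCAT3, a phospholipid-remodelling LXR target, was at 0.37.

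Lipoprotein uptake and lysosomal genes were evenly split, 5 of 10 each way. NPC2, which hands cholesterol to NPC1 inside the lysosome, was lower in C4-2, at 85.8 and 87.5 CPM in LNCaP and 37.7 and 35.4 CPM in C4-2 (log2 fold change -1.24 ± 0.051, adjusted p = 2.04e-07). With library totals it was at -0.24 (adjusted p = 0.060). NPC1, its partner, was at 0.26 as given above. LRPAP1, a chaperone of lipoprotein receptors, was 2.36-fold higher, and the scavenger receptor CD36, at 14 to 44 tags per library, was at -1.80. That call was lost with library totals (-0.81, adjusted p = 0.070) and without LNCaP replicate 2 (adjusted p = 0.11). The lysosomal lipase LIPA was at -0.12, a call lost under most other settings (DESeq2 gave an adjusted p of 0.094) and turned to 0.018 by the GC and length correction.

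Sterol transfer proteins gave 6 of 14 higher, 6 lower and 2 not called, from OSBPL5 at 1.54 to GRAMD1B at -1.96, the latter on 4 to 9 tags per library. The call of GRAMD1B was lost with DESeq2 (adjusted p = 0.19), with library totals (-0.98, adjusted p = 0.22) and without either LNCaP library (adjusted p = 0.080 each time). OSBP, the most abundant of the named ones, was at 0.46. Of the genes for prenylation, dolichol and ubiquinone, the branches that leave before squalene, 8 of 13 were higher, 2 lower and 3 not called. The methyltransferase ICMT was 2.51-fold higher, while the prenyltransferase subunits RABGGTB (-0.67) and FNTA (-0.52) were lower, and library totals turned both round (0.34 and 0.48). Esterification and oxidation genes were mostly below the filter, with 2 of 7 tested. NCEH1, which hydrolyses cholesteryl esters and so works against SOAT1, was 3.60-fold lower, at 34.8 and 33.9 CPM in LNCaP and 9.64 and 9.43 CPM in C4-2 (adjusted p = 5.88e-08). CYP46A1, an oxidase of cholesterol, was not called (log2 fold change -0.00022).

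**Figure D5:**
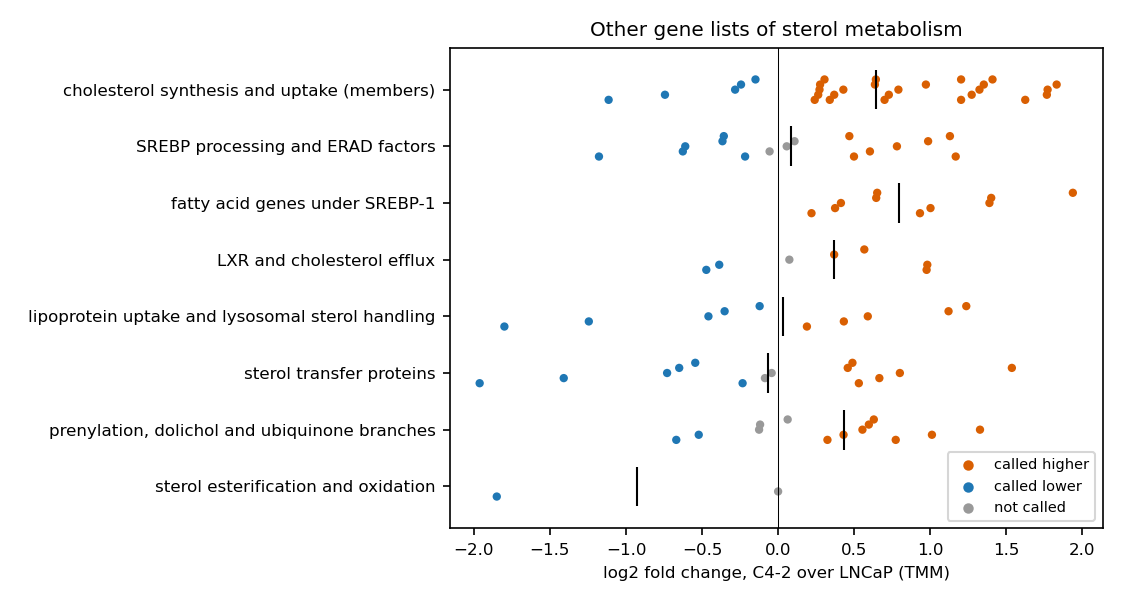
Log2 fold change, C4-2 over LNCaP as labelled, of every tested gene among the 29 members and the 7 neighbouring lists, with 1 point per gene, coloured by call, and a bar at the median of each list. The 10 genes of the list of fatty acid and related genes lie wholly above 0, and the transfer and lysosomal lists straddle it.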

How the data were processed

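Total RNA of 4 libraries was analysed, 2 labelled LNCaP and 2 labelled C4-2. The submitters' processing notes name TopHat2 2.0.6, Bowtie and the build hg19 (GRCh37). Per the file headers, the authors deposited a tag count and an RPKM value on each strand for 41351 RefSeq transcript entries; the counting tool is not given in the sources used here. The labels name a kit without saying whether it is stranded; 1.18% to 1.80% of tags were antisense, and the sense count was used. Symbols came from a RefSeq table (GRCh38.p14, names only), and tags without a symbol (2.06% to 2.15%) were left out. One transcript per symbol was kept, the one with most tags.

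Counts were tested with edgeR 4.0.16 in R 4.3.3 (filterByExpr, TMM, quasi-likelihood, cell line as the only term, Benjamini-Hochberg over 15975 genes). The procedure was also run on simulated counts in which few genes were changed. That setting cannot test the scaling here, where most genes were called. Each standard error is the fold change over the root of its F statistic, and the biological coefficient of variation was 6.43%. Replicates differed beyond sampling noise (chi-square per degree of freedom 25.7 and 12.7). Deviations of same-numbered libraries correlated at -0.032, so the numbers do not pair them. Other settings used DESeq2 1.42.0, limma 3.58.1, other scalings, filters, isoform choices and left-out libraries. Promoter windows came from the GRCh37 genome. GC content was that of the GENCODE transcript of the same gene nearest in length to the deposited one.

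The members and lists were chosen with earlier results of these data known. All 29 members are named, and from each other list the 2 tested genes with the highest mean RPKM and the called genes with the highest and lowest fold change. Some genes of these pathways are not reported here.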

Additional observations from a re-analysis of the deposited data

Results flagged for a closer look

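Tags on the strand opposite to ACAT2 were well above the share over all entries, which was 1.80% and 1.71% for LNCaP replicates 1 and 2 and 1.19% and 1.18% for C4-2 replicates 1 and 2. For ACAT2 the antisense share was 10.4% and 12.3% in LNCaP and 12.8% and 13.4% in C4-2, on 729, 1024, 4292 and 3247 antisense tags. TCP1, a chaperonin subunit gene, and SOD2-OT1 overlap ACAT2 on the opposite strand. NPC1 had an antisense share of 3.62% and 4.63% in LNCaP and 3.03% and 2.98% in C4-2, on 89, 125, 228 and 165 tags, and RMC1 overlaps it on the opposite strand. These tags lie outside the sense counts used for the comparison. With sense and antisense tags added, both genes stayed called as higher.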

How the results depend on the processing

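All 29 members kept their direction and call with DESeq2, without a filter on low counts, with isoforms summed, with the longest isoform span, with sense and antisense tags added, and without either LNCaP library. With the replicate block, which the data do not call for, the calls were again 24 higher and 5 lower. Leaving out 1 library at a time gave 24 higher and 4 to 5 lower. Library totals behind the RPKM values turned round HSD17B7 (0.72), SC5D (0.77), INSIG1 (0.86) and STARD4 (0.27), and of the genes named from other lists CYP46A1 (0.996), FNTA (0.48), LIPA (0.89), NR1H3 (0.53), RABGGTB (0.34) and SEC23A (0.64). Limma on log2(RPKM + 0.1) gave 0.72, 0.76, 0.86 and 0.26 for those 4 members, and on log2(RPKM + 1) 0.65, 0.68, 0.84 and 0.23, so members lower numbered 0 under all 3. The GC content and length correction turned round SREBF1 (-0.13) and LIPA (0.018).

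For the other lists, library totals gave 65 higher and 1 lower together. On that scale 72.4% of all tested genes were called higher and 11.0% lower. By list, SREBP processing had 15 higher and 0 lower, efflux 7 and 0, and lipoprotein uptake 8 and 0. Sterol transfer had 11 and 0, prenylation 13 and 0, and esterification 1 and 1. Prenylation genes lower numbered 4 with upper-quartile scaling and 4 with the stricter filter (mean CPM of at least 5), and esterification genes lower 2 with antisense tags added. The cause of these moves was not tested, apart from the shift of all genes, which was 1.004 with library totals, 0.99 and 0.86 with limma, -0.17 with upper-quartile scaling and -0.15 with the stricter filter. With 2 libraries per line, the calls or directions of GGPS1, CYP51A1, LBR, SREBF1, INSIG1, NPC1, HSD17B7, SC5D and STARD4 depend on the setting.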

Other observations

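For 14 of the members several transcript entries were deposited, and 15 had 1. The ratio of deposited RPKM values, C4-2 over LNCaP, differed little between entries of a gene. The widest range was 0.041 in log2 for FDPS, from 1.64 to 1.69 over 5 entries, followed by CYP51A1 with a range of 0.032 over 2 entries and LSS with 0.028 over 4. These entries share most of their tags, so they are not independent measurements.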
